A study of Mus musculus with 12 samples.

Results

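The expression of 10 inflammatory cytokine and mediator genes was followed in mammary tumours of mice that received MBQ-167, paclitaxel, both drugs or vehicle. The genes were taken by name and not by their values: the interleukin-1 family genes Il1a, Il1b, Il1rn and Il18, the cytokines Il6, Il10, Tnf and Tgfb1, and the enzymes Nos2 and Ptgs2. They are 10 of the 46078 genes in the count table, and 10 of the 18252 genes that had enough reads to be tested.

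All tumours arose from 300000 cells of the metastatic mouse mammary carcinoma line 4T1, here carrying firefly luciferase, placed in mammary fat pad number 4 of BALB/c mice. Every group therefore shares the line, the luciferase and the host strain, and the genotype is labelled wild type. Treatment began on day 14, and tumours were taken on day 28. The groups were vehicle, MBQ-167 (100 mg/kg, 5 times a week for 2 weeks), paclitaxel (5 mg/kg, 1 time a week) and both drugs together at those doses, with 3 libraries each. MBQ-167 inhibits the small GTPases Rac and Cdc42, as the series names it, and paclitaxel is a chemotherapy that stabilises microtubules. The age and sex of the mice, and whether each library is 1 mouse, were not given in the sources used here, so p-values measure the spread between libraries. The design text speaks of more than 1 injection occasion without tying libraries to it, and group therefore cannot be told apart from occasion.

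As background, inflammatory cytokines are signals that myeloid cells, tumour cells and stroma release to recruit and activate immune cells. IL-1 alpha and IL-1 beta signal through the same receptor, the product of Il1rn blocks that receptor, and IL-1 beta and IL-18 need cleavage by an inflammasome before release, so mRNA is only 1 step of their control. TNF and IL-6 drive NF-kappaB and STAT3 programmes, IL-10 and TGF-beta restrain immune cells, and the enzymes encoded by Nos2 and Ptgs2 make nitric oxide and prostaglandins. In 4T1 tumours these genes can be transcribed by carcinoma cells, neutrophils, macrophages and fibroblasts. The tumours were sequenced in bulk, so fewer cells of a type and less RNA per cell cannot be told apart in any value below.

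Total counts were 11540557 to 17001562 per library, with ranges that overlapped between groups. Ribosomal RNA-like features of chromosome 17 took 31.6% to 37.5% of them in vehicle and 30.1% to 36.8% in MBQ-167 libraries. Their share was 17.1% to 32.1% in paclitaxel and 19.9% to 37.4% in combination libraries. The scaled library sizes used for the levels below ran from 10758167 in combination library 1 to 20748008 in paclitaxel library 1. All 12 of the 12 carcinoma and epithelial markers were measured, with summed levels of 1020 to 3220 CPM (counts relative to library size) in vehicle libraries. Vehicle library 3 stood apart in its neutrophil markers, with a summed level of 1940 CPM against 668 and 536 in vehicle libraries 1 and 2. It also differed from them in macrophage and monocyte markers, at 1660 CPM against 3920 and 5970. T and NK cell markers were at 16.3 against 44 and 35.5 CPM, and B and plasma cell markers at 1.89 against 10.7 and 31.1 CPM. Fibroblast markers were at 10400 against 5480 and 5560 CPM, while endothelial markers, at 336 CPM, lay between 295 and 363. In each library, the deviation of every gene from its mean log2 level over the 12 libraries was correlated with transcript GC content. This correlation ran from 0.116 to 0.293 in vehicle and from 0.00609 to 0.139 in MBQ-167 libraries. It ran from -0.287 to -0.114 in paclitaxel and from -0.192 to -0.0273 in combination libraries. Where the neutrophil marker level or GC content ended a call, that is stated beside the call, mostly with the value from that fit.

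The promoters of Il1b, of its neighbour Il1a and of Ptgs2 are shown, because Il1b is the member that passed the test, Il1a is the other ligand of the same receptor, and Ptgs2 was second to Il1b in the comparison of the combination with vehicle. RefSeq (GRCm38.p6) sequences covering 250 bases before to 50 after the start were found for 8 of the 10 members. Il1b lies at chr2:129371090-129371389 and Il1a at chr2:129309923-129310222, both on the minus strand, and Ptgs2 at chr1:150099781-150100080 on the plus strand. Each is written 5′ to 3′ on the strand of its gene, with the matched motifs in capitals.
Il1b: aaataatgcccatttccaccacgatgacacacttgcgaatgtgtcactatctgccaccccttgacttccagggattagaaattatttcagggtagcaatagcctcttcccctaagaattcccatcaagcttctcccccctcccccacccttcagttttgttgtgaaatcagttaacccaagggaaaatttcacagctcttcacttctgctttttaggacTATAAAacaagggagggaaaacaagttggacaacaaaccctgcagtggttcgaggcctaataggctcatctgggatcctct
Il1a: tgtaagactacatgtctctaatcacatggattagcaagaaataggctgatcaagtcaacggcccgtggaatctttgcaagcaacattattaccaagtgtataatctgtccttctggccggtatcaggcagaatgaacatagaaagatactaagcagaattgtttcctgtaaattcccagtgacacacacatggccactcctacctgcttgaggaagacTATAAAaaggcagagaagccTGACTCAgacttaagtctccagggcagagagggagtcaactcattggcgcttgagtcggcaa
Ptgs2: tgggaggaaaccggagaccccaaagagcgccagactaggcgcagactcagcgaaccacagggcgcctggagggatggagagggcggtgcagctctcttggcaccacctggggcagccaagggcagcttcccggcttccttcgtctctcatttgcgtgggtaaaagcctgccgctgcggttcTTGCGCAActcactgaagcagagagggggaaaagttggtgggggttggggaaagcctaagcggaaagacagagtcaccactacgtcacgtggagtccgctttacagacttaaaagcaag
The capitals mark matches, on either strand, to TATAAA, the core of the TATA box, to the motif of the activator protein AP-1 or to that of C/EBP. The AP-1 motif was searched as TGANTCA, and the C/EBP motif as TTGCNNAA. TGACGTCA (the cyclic AMP response element) and the 10-letter NF-kB consensus were also searched, and no matches overlapped each other in these 3 promoters. In the Il1b window the single match was a TATA box beginning 31 bases before the start, and in Il1a a TATA box began 32 bases and an AP-1 match 12 bases before it. Ptgs2 held 1 C/EBP match, 69 bases before its start, and Il6 held the only NF-kB consensus match among the 10 promoters of the 8 members. Of all 32851 promoters of this length, 13.6% held TATAAA, 7.81% the AP-1 motif, 10.8% the C/EBP motif, 1.79% the cyclic AMP element and 4.51% the NF-kB consensus. A match describes these letters and is not a bound site, and a window without one says nothing of the factor.

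The members covered a wide range of expression. Corrected for length, as CPM per kilobase of exon, Il1b was the most abundant at 27.1 ± 9.07 (SD over 12 libraries), followed by Tgfb1 at 17.8 ± 2.45 and Ptgs2 at 14.5 ± 3.37. Nos2 stood at 9.04 ± 2.41, and Il1a, Il1rn and Il18 lay close together at 3.89 ± 1.26, 3.33 ± 0.716 and 3.09 ± 0.581. The lowest were Tnf at 1.12 ± 0.433, Il10 at 0.903 ± 0.587 and Il6 at 0.319 ± 0.132 CPM per kilobase. Neighbours in this order overlapped in their ranges at every step except from Il18 (lowest 1.98) to Tnf (highest 1.97). Il1b exceeded Tgfb1 within each of the 12 libraries, and Ptgs2 exceeded Nos2 in 11 of the 12. With the longest annotated transcript as the length, Il1b was at 38.1, Tgfb1 at 34.8 and Il1rn at 7.22, so the first place held and Il1rn moved above Il1a.

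**Figure D1:**
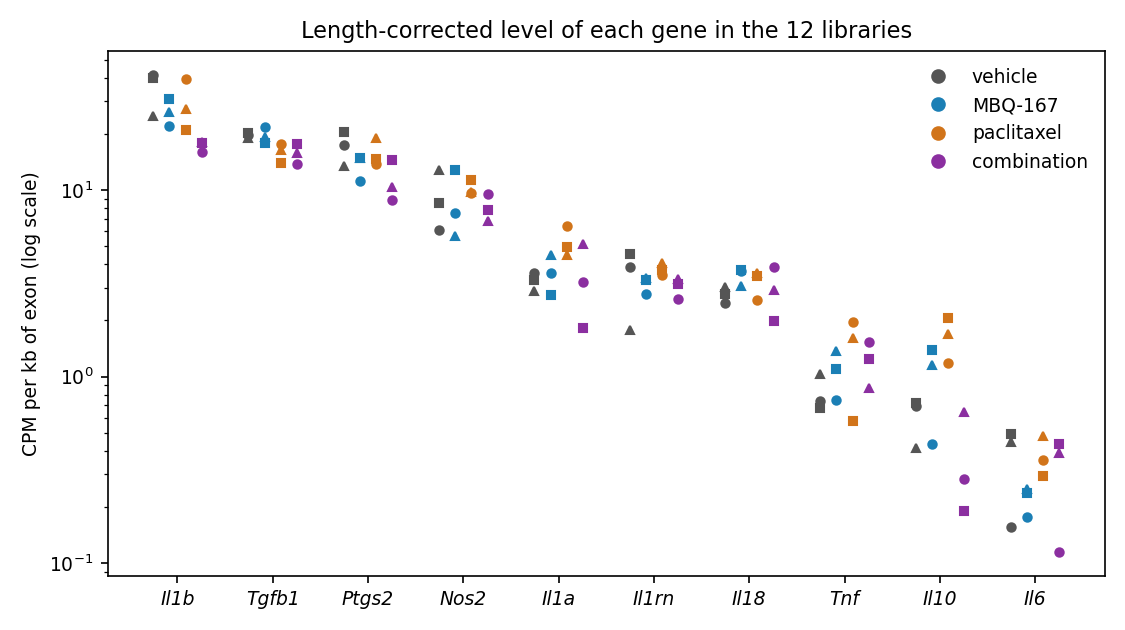
Length-corrected level of each gene (CPM per kilobase of exon, log axis) in the 12 libraries, with colours for the 4 groups and circles, squares and triangles for replicates 1 to 3. Il1b, Tgfb1, Ptgs2 and Nos2 lie above 5 CPM per kilobase in every library, and Il6 lies below 0.5 in every library.

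The order changed little between groups. In combination tumours Il1b was at 17.3 ± 1.18 (SD, n = 3) and Tgfb1 at 15.8 ± 1.98 CPM per kilobase with overlapping ranges, while in vehicle tumours Il1b, at 35.5 ± 9.16, lay above Tgfb1, at 19.7 ± 0.587, with none. Il10 was ahead of Tnf in paclitaxel tumours, at 1.64 ± 0.439 against 1.39 ± 0.722, and behind it in combination tumours, at 0.372 ± 0.24 against 1.22 ± 0.333. These are orders of levels, and no test was made between genes.

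Across the drug comparisons, 1 member passed the test: Il1b fell in combination tumours. A gene passed at an adjusted p under 0.05 in edgeR's quasi-likelihood fit of all 12 libraries, with Benjamini-Hochberg adjustment across every gene tested. Against vehicle, 0 of 10 members passed with MBQ-167 (0.0931% of all genes passed), 0 of 10 with paclitaxel (5.66% of all genes) and 1 of 10 with the combination (1.84% of all genes). Between the combination and MBQ-167, and between the combination and paclitaxel, 0 of 10 members passed, as did 0% of all genes in each. The interaction, which asks whether the effects of the drugs add on the log2 scale, was passed by 0 of 10 members and by 0.0603% of all genes, and the test of any difference among the 4 groups by 0 of 10 members and 1.38% of all genes. Before adjustment, a p under 0.05 was reached by 0, 3, 3, 3 and 3 of the 10 members in the comparisons of MBQ-167, paclitaxel and the combination with vehicle, of the combination with MBQ-167 and of the combination with paclitaxel. It was reached by 1 member in the interaction and by 4 in the test of any difference. Where edgeR called 0 members, DESeq2 and limma voom also called 0, except that DESeq2 called 2 in the test of any difference. Over all 18252 genes, an unadjusted p under 0.05 in edgeR was reached by 2348, 4126, 3350, 940 and 430 in the group comparisons, in the same order. It was reached by 1795 genes in the interaction and by 2910 in the test of any difference. DESeq2 called 1 and 5 genes in the comparisons of the combination with MBQ-167 and with paclitaxel.

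**Figure D2:**
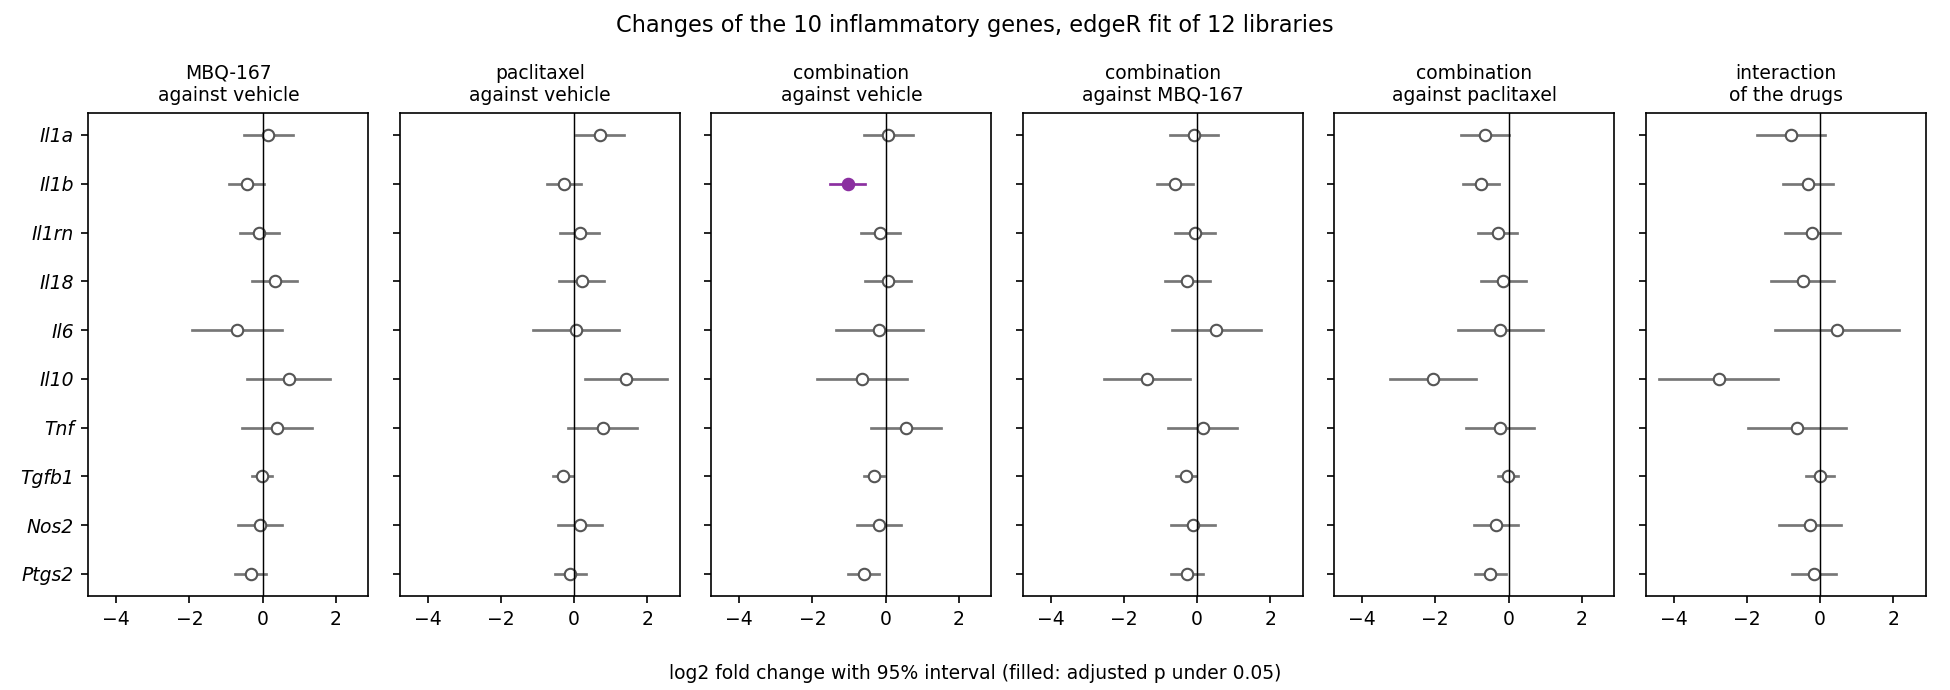
log2 fold change of each of the 10 genes with its 95% interval in the 5 comparisons between groups and in the interaction, from the edgeR fit of 12 libraries; filled points have an adjusted p under 0.05. Il1b in the combination against vehicle is the single filled point, at -1.03, and the widest intervals belong to Il6 and Il10.

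Separation of the groups gives a second description of the same data. The libraries of the compared groups did not overlap for 1 of 10 members with MBQ-167 against vehicle (17.3% of all genes), 3 with paclitaxel (25.4%) and 2 with the combination (20.9%). They did not overlap for 2 members between the combination and MBQ-167 (12.5% of all genes) and for 4 between the combination and paclitaxel (7.28%). The median log2 fold change of the members was -0.04, 0.16 and -0.18 for MBQ-167, paclitaxel and the combination against vehicle, beside 0 over all genes each time. In the combination against paclitaxel the median was -0.32 beside 0 over all genes, and 0 of 10 members had a value above 0 beside 49.9% of all genes. The 3 comparisons with vehicle share the vehicle libraries, and the comparisons with the combination share its libraries, so these values are not independent of each other.

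Il1b, which encodes IL-1 beta, fell to 0.488 of its vehicle level in combination tumours. Its gene (ENSMUSG00000027398) lies on chromosome 2 at 129364570 to 129371139 (GRCm38), minus strand. The antisense transcript Il1bos overlaps it and held 98 reads in all, 1 to 20 per library, and without known strandedness the reads of the pair cannot be told apart. The level was 79.3, 76.4 and 47.7 CPM in vehicle libraries 1 to 3 and 30.5, 33.9 and 34.7 CPM in the combination libraries. Every combination library lay below every vehicle library, and the combination group was the tightest of the 4, with a mean of 33 ± 2.24 CPM (SD, n = 3). The log2 fold change was -1.03 ± 0.23 (SE; 95% interval -1.52 to -0.55), with an edgeR adjusted p of 0.0377, which ranked 203 of the 18252 genes tested. MBQ-167 libraries held 41.9, 59 and 50.2 CPM and paclitaxel libraries 75.4, 40.1 and 51.6 CPM. The levels with either single drug thus overlapped those of vehicle, and paclitaxel library 1 was close to the higher vehicle libraries.

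With a single drug the Il1b estimates were smaller and did not pass. MBQ-167 against vehicle gave -0.43 ± 0.22 (edgeR adjusted p = 0.444), and paclitaxel against vehicle gave -0.28 ± 0.22 (edgeR adjusted p = 0.494). The combination libraries lay below all libraries of both single drugs, by -0.61 ± 0.23 against MBQ-167 (unadjusted p = 0.0174, adjusted p = 0.901) and by -0.76 ± 0.22 against paclitaxel (unadjusted p = 0.00462, adjusted p = 1). In the latter comparison Il1b ranked 31 of all genes by p. The interaction estimate was -0.33 ± 0.32 (95% interval -1 to 0.35, edgeR adjusted p = 0.78), an interval that holds 0 and an added fall as large as 1 on the log2 scale. These Il1b estimates depended on single libraries: without paclitaxel library 1 or 2 they were -0.56 and -0.09 for paclitaxel against vehicle, -0.47 and -0.94 for the combination against paclitaxel, and -0.05 and -0.51 for the interaction.

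The call for Il1b is close to its threshold. It passed under 8 of 16 other ways of processing and missed under 8, with log2 fold changes of -1.27 to -0.91 in all 16. The misses were limma voom (-0.99, adjusted p = 0.0539), a fit of vehicle and combination alone (-1.03, adjusted p = 0.124), the mean log2 CPM of the neutrophil markers as covariate (-1.27, adjusted p = 0.13) and the loss of any 1 library other than vehicle 3. Those losses gave -0.91 and -0.94 without vehicle 1 and 2, and -0.98, -1.05 and -1.08 without combination 1, 2 and 3, with adjusted p from 0.0711 to 0.129. With an offset for GC content Il1b passed, at -1.12 (edgeR adjusted p = 0.0497).

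**Figure D3:**
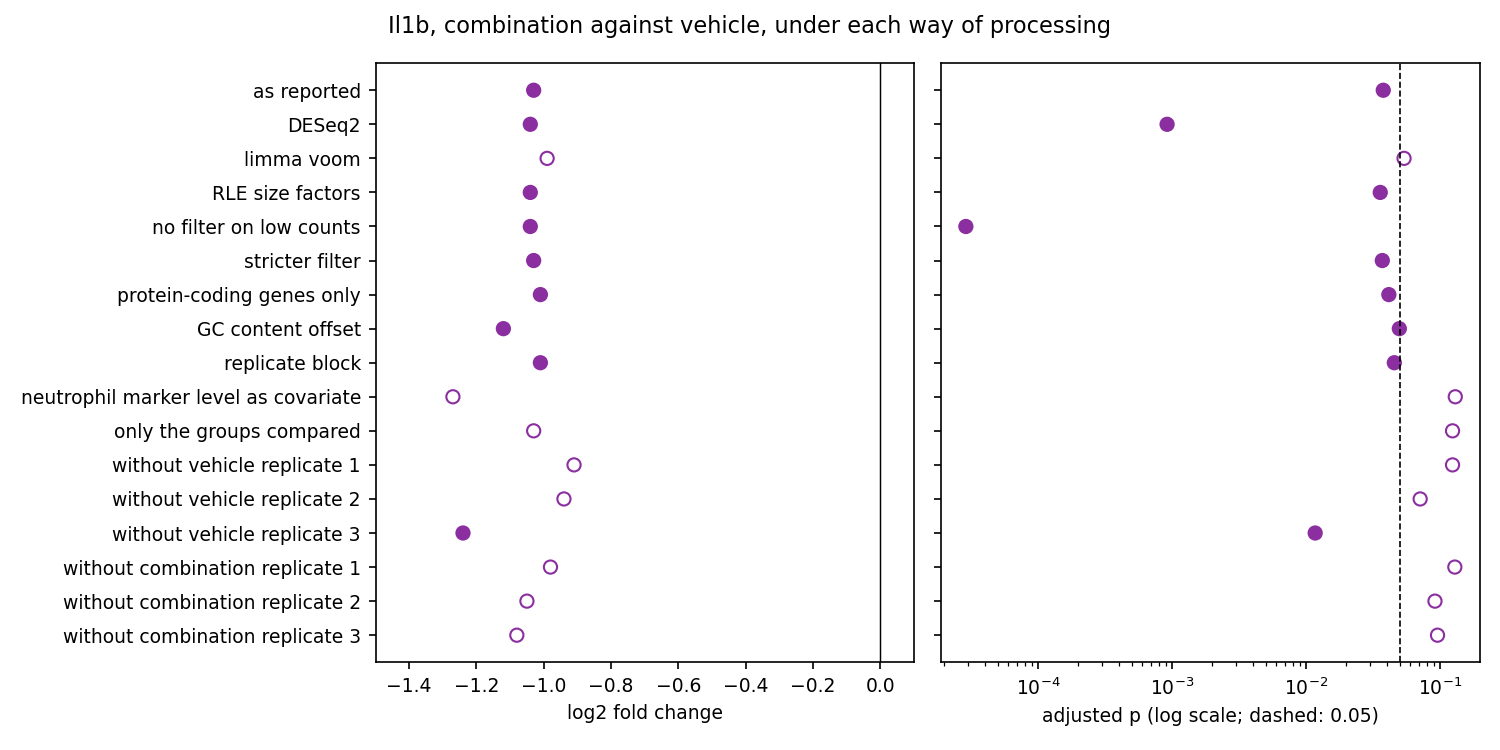
Il1b in the combination against vehicle as reported and under 16 other ways of processing: log2 fold change on the left, adjusted p on the right (log axis, dashed line at 0.05), filled points passing. All values lie between -1.27 and -0.91, while the adjusted p runs from 2.89e-05 to 0.13, and 8 of the 16 lie on the failing side.

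Markers of neutrophils, which are a known source of IL-1 beta, moved between the same groups. The summed level of the 20 listed neutrophil markers was 536 to 1940 CPM in vehicle, 444 to 523 CPM with MBQ-167, 338 to 448 CPM with paclitaxel and 347 to 404 CPM with the combination. Of the 19 tested, 11 fell in combination tumours and 12 in paclitaxel tumours, and without vehicle library 3 these numbers were 8 and 11. Mrgpra2b was at 0 in 6 libraries, and Ly6g in paclitaxel library 2. Vehicle library 3, with the highest neutrophil sum, held the lowest Il1b of its group, and without that library Il1b fell by 1.24 on the log2 scale in combination tumours (edgeR adjusted p = 0.0117). Paclitaxel tumours had a neutrophil sum like that of the combination, with Il1b at 55.7 ± 18 CPM against 33 ± 2.24. Summed immediate early genes, which cells induce rapidly on stimulation, were at 1470 to 1560 CPM in vehicle and 808 to 1000 CPM in combination libraries, and 9 of 16 fell. Erythroid markers also moved, with sums of 258 to 265 CPM in vehicle and 32.6 to 67.5 CPM in combination libraries, and 3 of 6 tested fell. Of 15 tested T and NK cell markers 1 rose in the combination against vehicle, and the median log2 value of the 15 was 0.84. The median was 1.15 for 8 B and plasma cell markers and 0.64 for 9 dendritic cell markers, of which 0 passed. The B and plasma cell sums spread widely, over 1.89 to 31.1 CPM in vehicle and 2.42 to 67 CPM in combination libraries. Across libraries Il1b correlated with the neutrophil markers at r = 0.41 (n = 12, or 0.72 in the 11 libraries without vehicle 3). With the immediate early genes r was 0.5 (0.6 without vehicle 3), and with macrophage and monocyte markers 0.36 (0.46). It was -0.31 (-0.61) with dendritic cell markers and -0.22 (-0.46) with T and NK cell markers. Fibroblast, carcinoma and endothelial markers gave -0.23 (-0.24), -0.24 (-0.26) and 0.06 (0.06). These values describe libraries that share their scaling. Whether neutrophils, macrophages, red blood, dendritic, T, NK, B or plasma cells took part in the Il1b result was not tested. The part of immediate early genes in the Il1b result was not tested either. Of the 18 macrophage and monocyte markers 0 passed in the combination against vehicle. Their sums were 3920, 5970 and 1660 CPM in vehicle libraries 1 to 3 and 2930, 3730 and 2170 CPM in combination libraries. The overlap of these sums came from vehicle library 3 alone. An unadjusted p under 0.05 in edgeR was reached by 2 of the 18, and DESeq2 called 0.

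Il1a encodes IL-1 alpha, a ligand of the same receptor that is active without inflammasome cleavage, and its levels followed another order. Its gene lies beside Il1b on chromosome 2 (129299610 to 129309972, minus strand). It was at 7.1, 6.48 and 5.67 CPM in vehicle libraries and at 12.6, 9.8 and 8.9 CPM in paclitaxel libraries, groups that did not overlap. The combination libraries spread over 6.32, 3.59 and 10.2 CPM, and MBQ-167 libraries held 7.09, 5.42 and 8.89 CPM. Paclitaxel against vehicle gave a log2 fold change of 0.70 ± 0.31 (95% interval 0.04 to 1.37, edgeR adjusted p = 0.194), which did not pass. The combination against vehicle gave 0.07 ± 0.31 (95% interval -0.6 to 0.74, edgeR adjusted p = 0.936). An overlapping transcript on the other strand, Gm14023, held 616 reads in all against 1430 for Il1a, and the strandedness of the counts is not given in the sources used here, so reads of the pair cannot be told apart.

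Il1rn, which encodes the secreted antagonist of the IL-1 receptor, had group means that lay within the spread of its vehicle libraries. It was at 18.7 ± 7.89 CPM in vehicle, 17.5 ± 1.87 with MBQ-167, 20.8 ± 1.59 with paclitaxel and 16.8 ± 2.07 CPM with the combination (SD, n = 3). The spread in vehicle came from 21.3, 25 and 9.86 CPM, with vehicle library 3 the lowest of all 12. The combination against vehicle gave -0.15 ± 0.25 (95% interval -0.68 to 0.39, edgeR adjusted p = 0.808). With all libraries the estimates of Il1rn against vehicle were -0.1, 0.15 and -0.15 for MBQ-167, paclitaxel and the combination. Without vehicle library 3 they were -0.41, -0.16 and -0.46, and the paclitaxel value changed sign.

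Il18, a cytokine matured by the same inflammasome and known for its action on T and NK cells, was low and even. Its means were 2.84 ± 0.268 CPM in vehicle, 3.6 ± 0.373 with MBQ-167, 3.3 ± 0.562 with paclitaxel and 3.01 ± 0.976 CPM with the combination, from 33 to 60 reads per library. MBQ-167 libraries (3.8, 3.83 and 3.17 CPM) lay above vehicle libraries (2.57, 2.85 and 3.11 CPM) without overlap, by a log2 value of 0.34 ± 0.29 that did not pass (edgeR adjusted p = 0.67). Il18 overlaps Tex12 and Bco2 on the other strand, which held 79 and 139 reads in all.

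Il10 varied the most of the 10 genes, 10.8-fold between its lowest and highest library, on few reads. IL-10 limits the activation of macrophages and dendritic cells. It was at 0.907, 0.949 and 0.54 CPM in vehicle libraries (12, 12 and 8 reads) and at 1.54, 2.69 and 2.21 CPM in paclitaxel libraries (32, 34 and 36 reads). The combination libraries held 0.372, 0.248 and 0.843 CPM (4, 4 and 16 reads), and the MBQ-167 libraries 0.573, 1.81 and 1.52 CPM (8, 25 and 25 reads). Paclitaxel libraries lay above all vehicle and all combination libraries without overlap, while MBQ-167 libraries ran across the others.

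None of the Il10 differences passed over all genes. Paclitaxel against vehicle gave 1.41 ± 0.53 (unadjusted p = 0.0174, edgeR adjusted p = 0.126), and the combination against paclitaxel gave -2.07 ± 0.54 (95% interval -3.23 to -0.9, unadjusted p = 0.00193, edgeR adjusted p = 1). In the latter it ranked 10 of 18252 genes by p, in a comparison that no gene passed. The interaction was -2.77 ± 0.76 (95% interval -4.41 to -1.14, unadjusted p = 0.00265, edgeR adjusted p = 0.25). For Il10 the interaction was -3.5 to -2.44 under 21 alternatives. It missed under 20 of them, with adjusted p from 0.0948 to 0.512, and DESeq2 gave no adjusted p. DESeq2's test of any difference among the 4 groups did call Il10, which edgeR's did not (adjusted p = 0.148).

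Tnf, the classical macrophage cytokine, and Il6, a driver of STAT3 signalling, were near the detection limit. Tnf was at 1.33 ± 0.31 CPM in vehicle, 1.76 ± 0.519 with MBQ-167, 2.27 ± 1.18 with paclitaxel and 1.99 ± 0.545 CPM with the combination, from 12 to 67 reads per library. Paclitaxel libraries held both the highest and the lowest Tnf level of all 12, 3.23 and 0.948 CPM. Paclitaxel against vehicle gave 0.78 ± 0.44 (95% interval -0.17 to 1.73, edgeR adjusted p = 0.321). For Tnf that value was 0.43 without paclitaxel library 1 and 1.66 with the neutrophil covariate, and no alternative passed. Il6 was at 0.881 ± 0.439, 0.539 ± 0.0957, 0.915 ± 0.231 and 0.76 ± 0.42 CPM in the same order of groups, from 3 to 19 reads per library. At this depth its intervals were wide, from -1.36 to 1.02 for the combination against vehicle, which holds a 2-fold change in either direction.

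Tgfb1, which encodes the latent cytokine TGF-beta 1, was the most even member, 1.57-fold from lowest to highest library. It was at 100, 102 and 96.2 CPM in vehicle and at 110, 89.8 and 97 CPM in MBQ-167 libraries. Paclitaxel libraries held 89.3, 70.4 and 82.4 CPM and combination libraries 69.5, 89.5 and 80.1 CPM. Both groups that received paclitaxel lay below vehicle without overlap. The log2 fold changes were -0.30 ± 0.12 with paclitaxel (unadjusted p = 0.0302, edgeR adjusted p = 0.169) and -0.32 ± 0.12 with the combination (unadjusted p = 0.0229, edgeR adjusted p = 0.194), neither of which passed. MBQ-167 against vehicle gave -0.01 ± 0.12 (95% interval -0.28 to 0.26), the narrowest interval of the 10 members in that comparison.

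Ptgs2 encodes cyclooxygenase-2, the inducible enzyme of prostaglandin synthesis. It was at 79.5, 93.3 and 61.8 CPM in vehicle libraries, 51.4, 67.7 and 68 in MBQ-167, 63.5, 67.4 and 87.6 in paclitaxel and 40.6, 66.3 and 47.6 CPM in combination libraries. The combination had the lowest mean, 51.5 ± 13.3 CPM against 78.2 ± 15.8 in vehicle, and its highest library overlapped the lowest of vehicle. The combination against vehicle gave -0.60 ± 0.20 (95% interval -1.03 to -0.17, unadjusted p = 0.00913, edgeR adjusted p = 0.131) and did not pass. Without a filter on low counts the same value had an adjusted p of 0.0199, the only one of 16 alternatives in which it passed.

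Nos2, the inducible nitric oxide synthase, showed no group that stood apart from vehicle. Vehicle libraries held 26.9, 37.8 and 56.5 CPM, MBQ-167 libraries 33.3, 56.7 and 25.1, paclitaxel libraries 42.6, 49.9 and 43.3, and combination libraries 42.2, 34.4 and 30.2 CPM. The MBQ-167 libraries alone spanned the range of all 12. Against vehicle the log2 fold changes were -0.08 ± 0.28, 0.16 ± 0.28 and -0.19 ± 0.28 for MBQ-167, paclitaxel and the combination, with edgeR adjusted p of 0.937, 0.783 and 0.775. Combination libraries lay below paclitaxel libraries without overlap, by -0.35 ± 0.28 (edgeR adjusted p = 1).

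**Figure D4:**
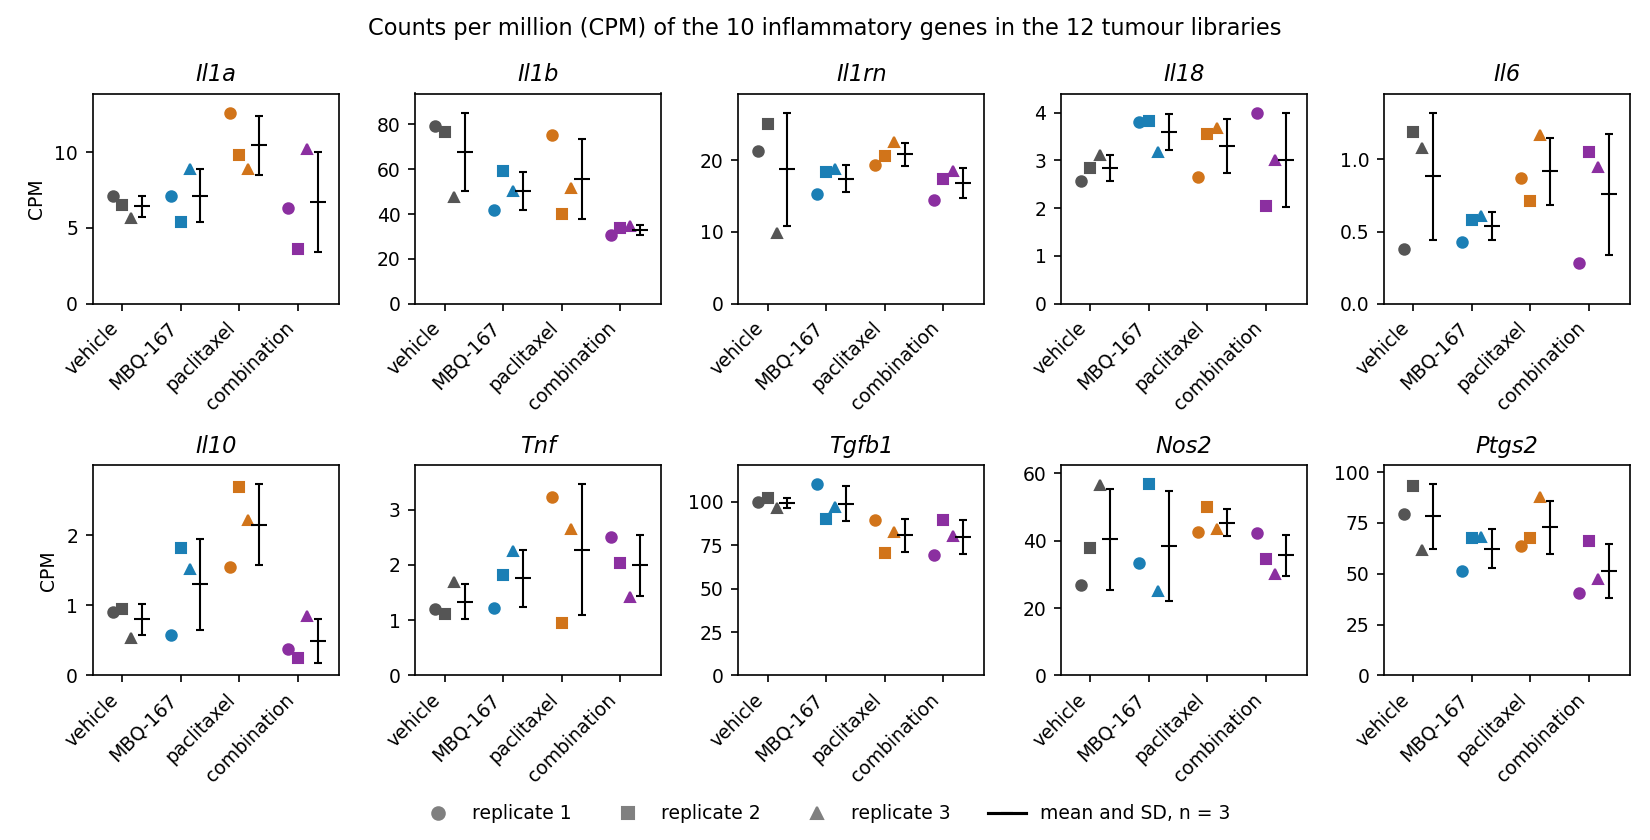
CPM of each of the 10 genes in the 12 libraries by group (linear axes from 0), with the mean and SD of each group in black, n = 3. Il1b lies at 30.5 to 34.7 CPM in combination libraries, below every other library. Il10 has its highest group mean with paclitaxel, where libraries at 1.54 to 2.69 CPM overlap MBQ-167 libraries at 0.573 to 1.81 CPM.

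The receptors and regulators around these genes were followed in 13 pathway lists, and 11 of their 150 tested genes passed in at least 1 comparison. All 11 passed with paclitaxel, 7.33% of the 150 beside the 5.66% of all genes given above, 6 (4%) passed with the combination beside 1.84%, and 1 (0.667%) with MBQ-167 beside 0.0931%. These shares are no result about the lists as a whole, and the genes are described singly. Among 13 receptor and proximal signalling genes of IL-1, Il1r2, the decoy receptor that binds IL-1 without signalling, fell with paclitaxel (-2.33 ± 0.43, edgeR adjusted p = 0.0103) and with the combination (-2.03 ± 0.43, edgeR adjusted p = 0.0335), and 0 rose. It was at 26.1, 13.4 and 67.3 CPM in vehicle and at 9.67, 9.91 and 6.8 CPM in combination libraries, with its highest level in the library richest in neutrophil markers. Without vehicle library 3 the Il1r2 values were -1.48 with paclitaxel and -1.18 with the combination, both passing. With that neutrophil covariate they were -0.4 and -0.01, and neither passed. The combination call of Il1r2 passed under 8 of 16 alternatives (-2.42 to -0.01). That call was also lost with limma voom, with only the groups compared and after the GC content correction. The same held without vehicle library 1 or any combination library. The paclitaxel call of Il1r2 passed under 14 of 16 (-2.72 to -0.4), and also missed with only the groups compared.

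Lists around maturation and other receptors held no gene that passed. Of 11 inflammasome and release genes, 0 passed; the smallest p in the test of any difference belonged to Aim2, a cytosolic DNA sensor, at 0.76 ± 0.22 with the combination (edgeR adjusted p = 0.0883). Of 3 tested IL-18 receptor genes and binding proteins, 0 passed, and Il18r1 led at 2.63 ± 0.65 with the combination (edgeR adjusted p = 0.0562), with 15.8 CPM in combination library 3 against 2.23 and 3.59 in the others. Of 11 IL-6 and STAT3 genes, 0 passed, led by the related cytokine Osm at -1.01 ± 0.27 with the combination (edgeR adjusted p = 0.0645). Both IL-10 receptor genes were tested and 0 passed, led by Il10rb at 0.25 ± 0.26 (edgeR adjusted p = 0.659). In the combination against vehicle, DESeq2 called 1 gene in each of the first 3 of these 4 lists and 0 IL-10 receptors, and an unadjusted p under 0.05 in edgeR was reached by 2, 1, 2 and 0 genes in the order given.

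Of 13 tested TNF receptor and signalling genes, 2 rose and 0 fell with paclitaxel. Tnfsf10, which encodes the death ligand TRAIL, was at 13.3, 8.7 and 5.87 CPM in vehicle and 19.5, 35.9 and 38.8 CPM in paclitaxel libraries, a log2 rise of 1.76 ± 0.32 (edgeR adjusted p = 0.00969). Birc2, an inhibitor of apoptosis that acts at the TNF receptor, rose by 0.51 ± 0.12 (edgeR adjusted p = 0.0296). With the combination Tnfsf10 gave 1.17 ± 0.32 and Birc2 0.41 ± 0.12, which did not pass (edgeR adjusted p = 0.0763 and 0.0957), and the interactions, at -1.67 ± 0.44 and -0.29 ± 0.17, did not pass either. With the neutrophil covariate Tnfsf10 stood at 0.99 and Birc2 at 0.34, and neither passed. Tnfsf10 passed under 15 of 16 alternatives (0.99 to 2.1), and Birc2 under 8 of 16 (0.25 to 0.59), with the call lost after the GC content correction (0.25, adjusted p = 0.354) and without vehicle library 2 or 3 or any paclitaxel library.

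Of 22 TGF-beta ligands, receptors, activators and SMADs, 0 passed, led by the latent-binding protein Ltbp4 at -0.70 ± 0.20 with paclitaxel (edgeR adjusted p = 0.0582). The median of the list was -0.24 with paclitaxel and -0.19 with the combination, beside 0 over all genes. Of 10 TGF-beta target genes, 0 passed, led by Skil, a feedback repressor, at 0.37 ± 0.12 with paclitaxel (edgeR adjusted p = 0.0803). In these lists an unadjusted p under 0.05 with paclitaxel was reached by 6 and 2 genes, and DESeq2 called 3 and 1.

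Around Nos2, 1 of 9 tested nitric oxide and arginine genes passed: Ass1, which makes the arginine precursor argininosuccinate, fell with paclitaxel by 0.83 ± 0.19 on the log2 scale (edgeR adjusted p = 0.0207). Ass1 was at 15.3, 14.5 and 15.5 CPM in vehicle and 9.25, 7.9 and 8.22 CPM in paclitaxel libraries. It passed under 10 of 16 alternatives (-0.91 to -0.73) and lost the call after the GC content correction (-0.73, adjusted p = 0.0504), with the neutrophil covariate (-0.79, adjusted p = 0.191), and without vehicle library 1 or any paclitaxel library. Around Ptgs2, 1 of 18 tested prostaglandin genes passed: Alox5ap, which presents arachidonic acid to the leukotriene pathway and not to cyclooxygenase, fell by 1.35 ± 0.28 with both paclitaxel (edgeR adjusted p = 0.0163) and the combination (edgeR adjusted p = 0.0338). Alox5ap was at 36.2, 43.8 and 90.4 CPM in vehicle and 20.6, 28.6 and 17.7 CPM in combination libraries, highest again in vehicle library 3. Without that library its values were -0.85 and -0.84, both passing, and with the neutrophil covariate -0.31 and -0.25, neither passing. Alox5ap also lost the call without paclitaxel library 2 or 3 in the first comparison (-1.6 to -0.31 over 16 alternatives) and without any combination library in the second (-1.6 to -0.25), where it missed after the GC content correction too (-1.3, adjusted p = 0.0696).

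Regulators of NF-kappaB and of cytokine mRNA made up 5 of the 11 pathway genes that passed. Of 16 NF-kappaB factors and feedback targets, with paclitaxel 1 fell and 1 rose: Nfkbia, the inhibitor that NF-kappaB itself induces, gave -0.47 ± 0.13 (edgeR adjusted p = 0.0478), and Chuk, a kinase that removes that inhibitor, gave 0.52 ± 0.12 (edgeR adjusted p = 0.0275). With the combination their values were -0.49 ± 0.13 and 0.48 ± 0.12, which did not pass (edgeR adjusted p = 0.0645 and 0.0618). Nfkbia passed under 6 of 16 alternatives (-0.61 to -0.29). It lost the call after the GC content correction (-0.38), with the neutrophil covariate (-0.29), with limma voom and with protein-coding genes only. The Nfkbia call was also lost without vehicle library 2 or 3 or any paclitaxel library. Chuk passed under 9 of 16 (0.16 to 0.79, the lowest after the GC content correction, which ended the call). It lost the call with the neutrophil covariate (0.79, adjusted p = 0.06) and without vehicle library 1 or 2 or paclitaxel library 1 or 2. With only the groups compared Nfkbia and Chuk both missed, as did Birc2 with paclitaxel. The same held for Alox5ap with paclitaxel and the combination and for Tia1 with the combination.

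Of 9 factors that set cytokine mRNA stability, 3 changed. Dusp1, a phosphatase that switches off the p38 pathway and is also an immediate early gene, fell in each drug group: it was at 60.9, 83.6 and 90.1 CPM in vehicle and at 22 to 31.6 CPM in all 9 drug libraries. The changes were -1.46 ± 0.16, -1.56 ± 0.16 and -1.54 ± 0.16 for MBQ-167, paclitaxel and the combination, with edgeR adjusted p of 0.0016, 0.000853 and 0.0021, and each passed under 16 of 16 alternatives. Its interaction, 1.49 ± 0.22 (edgeR adjusted p = 0.0286), was positive, since the fall with both drugs was smaller than the sum of the falls with each. It missed under 7 of 21 alternatives, with values of 1.28 to 1.64 in all 21. Of those 7, 6 left out 1 library each (any MBQ-167 library, paclitaxel 2 or 3, or combination 2). The remaining miss was with the neutrophil covariate.

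Zfp36, which encodes the mRNA decay factor tristetraprolin and is likewise immediate early, fell with paclitaxel (-0.84 ± 0.18, edgeR adjusted p = 0.0184) and the combination (-1.10 ± 0.18, edgeR adjusted p = 0.0175). Tia1, an RNA-binding translational silencer, rose by 0.99 ± 0.14 (edgeR adjusted p = 0.00392) and 0.80 ± 0.14 (edgeR adjusted p = 0.0204) in the same groups. Of the 16 immediate early genes 6, 9 and 9 fell with MBQ-167, paclitaxel and the combination, with sums of 863 to 915, 807 to 880 and 808 to 1000 CPM against 1470 to 1560 CPM in vehicle. The part of that shared fall in Dusp1 and Zfp36 was not tested. Zfp36 passed under 12 of 16 alternatives in each comparison (-1.01 to -0.62 and -1.27 to -0.88). Both Zfp36 calls were lost with the neutrophil covariate (-0.62, adjusted p = 0.274, and -0.88, adjusted p = 0.176) and with only the groups compared, and the paclitaxel call after the GC content correction (-0.73, adjusted p = 0.0517) and without paclitaxel library 2. The combination call was lost without combination library 1 or 2. Tia1 passed under 16 of 16 alternatives with paclitaxel and under 9 of 16 with the combination (0.51 to 1.06), where the call was lost after the GC content correction (0.51, adjusted p = 0.084), with the neutrophil covariate (1.06, adjusted p = 0.0664) and without vehicle library 1 or any combination library.

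Among 14 tested genes of other inflammatory cytokines, Mif, which encodes macrophage migration inhibitory factor, fell with paclitaxel (-0.81 ± 0.16, edgeR adjusted p = 0.0137) and the combination (-0.85 ± 0.16, edgeR adjusted p = 0.0264). Mif was at 77.8, 70.9 and 78.6 CPM in vehicle, 43.9, 37 and 48.7 in paclitaxel and 31.3, 47.3 and 47.3 CPM in combination libraries. Both of these drug groups lay below vehicle without overlap, and they overlapped each other. After the GC content correction Mif was at -0.63 and -0.73 and did not pass in either. With the neutrophil covariate it was at -0.9 (adjusted p = 0.109) and -0.94 (adjusted p = 0.137), again not passing. The paclitaxel call passed under 13 of 16 alternatives (-0.91 to -0.63) and was lost without paclitaxel library 2. The combination call passed under 10 of 16 (-0.95 to -0.68) and was lost with only the groups compared and without vehicle library 1 or combination library 1 or 2. Il17a was listed at 0 in all 12 libraries, and 6 further cytokine genes of the list had too few reads to be tested.

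**Figure D5:**
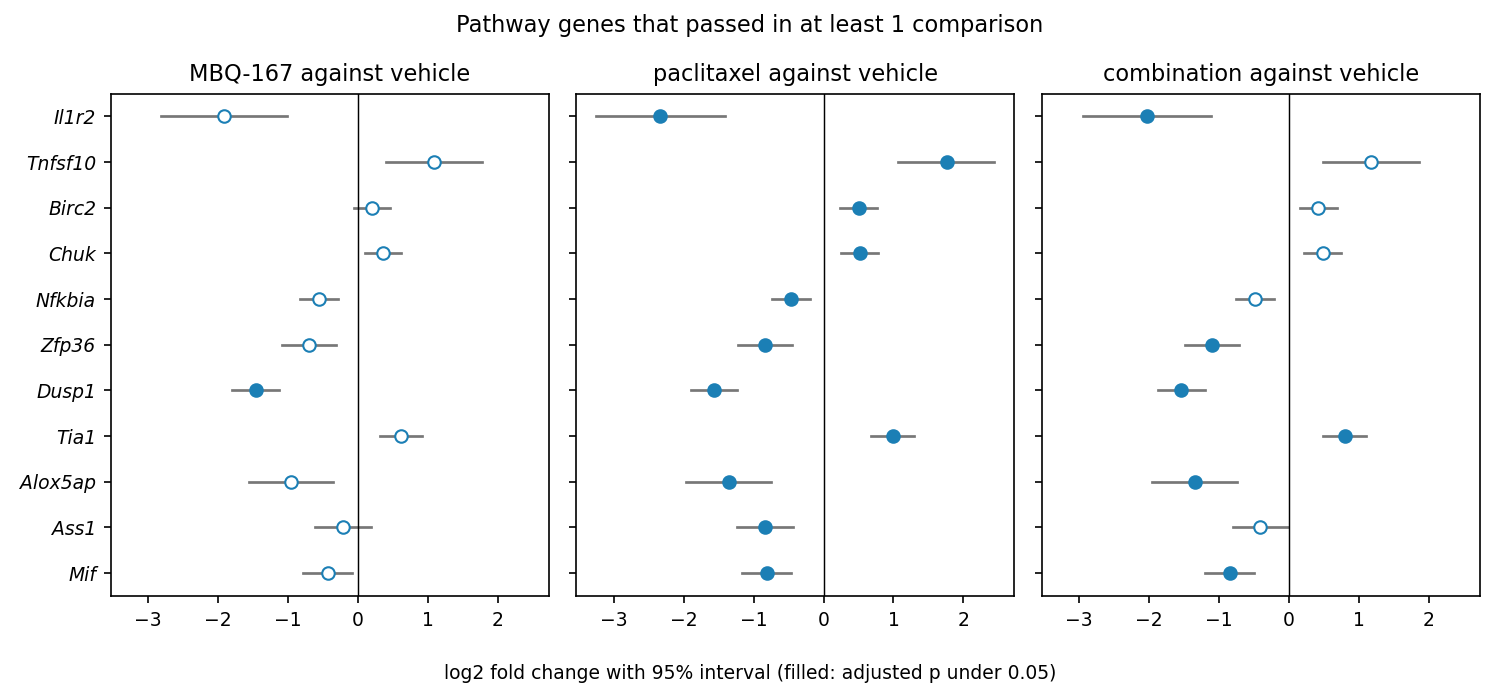
log2 fold change with 95% interval of the 11 pathway genes that passed in at least 1 comparison, for MBQ-167, paclitaxel and the combination against vehicle (edgeR fit of 12 libraries); filled points passed. Dusp1 is filled in all 3 panels, at -1.46, -1.56 and -1.54, and 11 genes are filled with paclitaxel.

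The genes whose levels followed each member most closely over the 12 libraries were described by Pearson's r of log2 CPM. The search covered the 15859 genes whose mean reached 1 CPM, with the members themselves left out. All values rest on the same 12 libraries, share their depth and scaling, and are given without a test. For Il1b they were Gm26768 (0.92), Ctnnbl1 (0.891) and Hilpda (0.891), and for Tgfb1 Grb2 (0.957), Uck2 (0.934) and Zbtb43 (0.923). For Il1a they were Dcp1b, Ide and Kynu, for Il1rn Dhdh, Slc7a8 and Epdr1, and for Il18 Asap3, Pex26 and Gm43701. For Il10 they were Spag6, Pcgf6 and Zc3h6, and for Tnf Zfp266, Exph5 and H2-T-ps. For Nos2 they were Gpr141, Fmo2 and Tmem41b, and for Ptgs2 Apbb1ip, Gm5830 and Adora2b. Members could not be listed for each other, since they were left out of the search. Without vehicle library 3, 0 of the 3 remained for Il1rn and Ptgs2 and 1 of 3 for Tnf and Nos2. Il6 was left out because its mean level was under 1 CPM.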

How the data were processed

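The authors deposited raw counts per gene (whole numbers, 1 column per library), and no value in the table was negative or fractional. The submitters' processing notes name HISAT2, HTSeq, DESeq2 and the build GRCm38, without versions. Strandedness and the handling of multimapping reads were not given in the sources used here. Labels name polyA RNA as the molecule. Of 46078 genes, 15275 had no read and 45143 matched a symbol.

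Genes were filtered with filterByExpr of edgeR 4.0.16 (minimum count 10), scaled by TMM and tested by quasi-likelihood in 1 fit of 12 libraries without covariates (8 residual degrees of freedom, biological coefficient of variation 0.214). Every adjusted p, unless another tool is named, comes from that fit with Benjamini-Hochberg adjustment over 18252 genes within a comparison. CPM are counts relative to the TMM-corrected library size (edgeR's cpm). Exon lengths and gene coordinates came from GENCODE vM21 on GRCm38. Two-sided intervals are at 95%, and fold changes are on the log2 scale. The scripts were tested on simulated data.

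The members, gene lists and tests were chosen with earlier results of these data known. All 10 members were named in every comparison; from each pathway list every gene that passed in a comparison between groups or in the interaction, or otherwise the gene with the smallest p in the test of any difference; for each member with a mean of at least 1 CPM, the 3 genes with the highest Pearson r (prior count 2). Alternatives were DESeq2 1.42.0, limma 3.58.1 voom, RLE scaling, no filter, a filter of 1 CPM in 3 libraries, protein-coding genes only, a GC content offset (spline with 5 degrees of freedom), the groups compared alone, a replicate block, the mean log2 CPM of neutrophil markers as covariate, and leaving out each library. R 4.3.3 and Python 3.11.15 were used.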

Additional observations from a re-analysis of the deposited data

How the results depend on the processing

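The count of members that passed in the combination against vehicle, 1 (Il1b), was 0 with limma voom, with the neutrophil covariate and with only the groups compared, 2 without a filter on low counts (Il1b and Ptgs2), and 0 to 1 when 1 library was left out. The count of 0 in the test of any difference was 2 with DESeq2 (Il1b and Il10), 1 without a filter (Il1b), and 0 to 1 when 1 library was left out, with Il1b called without vehicle library 3. Of 122 counts of members under an alternative, 110 were the same as reported. Most of these 110 were a 0 that stayed 0, since only the combination against vehicle had a reported count above 0. In that comparison Il1b missed under 8 of 16 alternatives. Over all genes, DESeq2 called 325, 1772, 958, 1, 5, 153 and 1247 in the order MBQ-167, paclitaxel and combination against vehicle, combination against MBQ-167 and paclitaxel, interaction and any difference, and the fit without a filter 392, 1554, 849, 4, 7, 197 and 1145. The GC content offset left 422 with paclitaxel, 75 with the combination and 63 in the test of any difference; the neutrophil covariate left 241, 87 and 13 there and 6 in the interaction; the groups compared alone left 5, 251 and 7 against vehicle.

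Of 1008 estimates of member log2 fold changes under an alternative, 57 had the opposite sign to the reported one. None of those estimates and none of the reported values they belong to had passed; their cause was not tested. Where leaving out 1 library turned the sign, the range for MBQ-167 against vehicle was -0.04 to 0.32 for Il1a, -0.41 to 0.17 for Il1rn, -0.09 to 0.05 for Tgfb1 and -0.47 to 0.24 for Nos2. For paclitaxel against vehicle the range was -0.16 to 0.42 for Il1rn, -0.31 to 0.32 for Il6, -0.07 to 0.48 for Nos2 and -0.26 to 0.04 for Ptgs2. For the combination against vehicle the range was -0.4 to 0.37 for Il1a, -0.46 to 0.11 for Il1rn, -0.53 to 0.18 for Il6, -0.17 to 0.29 for Il18 and -0.42 to 0.13 for Nos2. For the combination against MBQ-167 the range was -0.55 to 0.22 for Il1a, -0.14 to 0.04 for Il1rn, -0.05 to 0.38 for Tnf and -0.34 to 0.28 for Nos2. For the combination against paclitaxel the range was -0.5 to 0.12 for Il6, -0.37 to 0.08 for Il18, -0.58 to 0.12 for Tnf and -0.11 to 0.07 for Tgfb1. For the interaction the range was -0.47 to 0.1 for Il1rn, -0.1 to 0.08 for Tgfb1 and -0.59 to 0.13 for Nos2. With limma voom the values of opposite sign were Il1rn 0.03 for MBQ-167 against vehicle and Il1a -0.02 and Il18 -0.01 for the combination against vehicle. With the GC content offset the values of opposite sign were Il1a -0.01 and Tgfb1 0.01 for MBQ-167 against vehicle, Il1rn -0.19 and Il6 -0.39 for paclitaxel against vehicle, Il1a -0.23 and Il18 -0.05 for the combination against vehicle and Il1rn 0.01 and Ptgs2 0.1 for the interaction. With the neutrophil covariate the values of opposite sign were Nos2 0.41 for MBQ-167 against vehicle, Il1rn -0.77 for paclitaxel against vehicle, Nos2 0.56 for the combination against vehicle, Nos2 0.15 for the combination against MBQ-167 and Il1rn 0.31, Tgfb1 0.06 and Ptgs2 0.16 for the interaction.

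Whether replicate numbers pair the libraries across groups is not settled by their values. Deviations from the group means of same-numbered libraries correlated at -0.181 to 0.298 over 18 pairs (median 0.0245). Those of differently numbered libraries correlated at -0.259 to 0.243 over 36 pairs (median -0.0344). Of the 12 libraries, 6 correlated best with their own number. With the replicate block, 24, 1092, 300, 0, 0, 13 and 254 genes passed in the order above, and Il1b in the combination against vehicle kept its call (-1.01, adjusted p = 0.0456). Spearman's rho in place of Pearson's r kept 0 of the 3 nearest genes for Il1rn, Tgfb1 and Nos2. Depth limits Il6, Il10 and Tnf, with as few as 3, 4 and 12 reads in a library.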

Other observations

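The ratio of 2 counts within a library does not depend on the scaling between libraries. The ratio of Il1b to Il1rn reads, the ligand against its antagonist, was 3.06 to 4.84 in vehicle, 2.68 to 3.22 in MBQ-167, 1.95 to 3.91 in paclitaxel and 1.88 to 2.1 in combination libraries, so the combination lay below vehicle and MBQ-167 without overlap and overlapped paclitaxel. The ratio of Il1b to Il1a reads was 8.4 to 11.8 in vehicle, 5.64 to 10.9 in MBQ-167, 4.1 to 5.97 in paclitaxel and 3.41 to 9.43 in combination libraries. Against Ptgs2 the ratio was 0.772 to 0.997 in vehicle and 0.738 to 0.872 in MBQ-167 libraries. It was 0.589 to 1.19 in paclitaxel and 0.511 to 0.751 in combination libraries. Against Tgfb1 it was 0.496 to 0.789, 0.383 to 0.657, 0.57 to 0.844 and 0.379 to 0.439 in the same order of groups. The combination lay below vehicle against either gene, but overlapped MBQ-167 against either and paclitaxel against Ptgs2. These ratios were chosen after the values of the genes were seen and were not tested.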
